A study of Mus musculus with 12 samples.

Results

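The genes described here are *Saa1*, *Saa2*, *Saa3*, *Lcn2*, *Hp*, *Orm1*, *Ptx3* and *Steap4*, 8 acute-phase genes of the 46731 genes in the table, each of which was found by its symbol. The 8 were chosen by their measured levels in these same libraries, which were high in *Ddx5*-depleted cells given cytokines, so that their own differences are given as a description, with no p-value. The libraries came from ATDC5, a mouse teratocarcinoma-derived line used as a model of cartilage-forming cells. All cells carried a lentiviral hairpin driven by the U6 promoter and had been selected with puromycin. The hairpin was a control (shRNA-NC) or was directed against *Ddx5* (shRNA-*Ddx5*), the gene of an RNA helicase. Cells of each kind were left in medium or were given IL-1β (5 ng/ml) and TNF-α (25 ng/ml) together, called cytokines here, for 6 h, which made 4 groups of 3 replicates. An effect of this hairpin other than through *Ddx5* cannot be told apart from the knockdown. Levels are FPKM, fragments scaled to gene length and library size, and the fragments behind a level are given where they are few.

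The acute-phase response is the rapid change in secreted proteins that follows injury or infection. IL-1β and TNF-α act mainly through NF-κB and IL-6 through STAT3, and the factors C/EBPβ and C/EBPδ act with both at the promoters of acute-phase genes. Much of the response takes place in the liver, but *Saa3*, *Lcn2* and *Ptx3* are also made by fibroblasts, macrophages and chondrocytes in inflamed tissue.

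In GRCm39 coordinates the serum amyloid A genes formed a cluster on chromosome 7, with *Saa3* (46361422 to 46365100, minus strand), *Saa1* (46389921 to 46392605, minus strand) and *Saa2* (46401257 to 46403737, plus strand). *Lcn2* lies on chromosome 2 (32274649 to 32277751, minus strand), *Ptx3* on chromosome 3 (66127308 to 66133227, plus strand), *Orm1* on chromosome 4 (63262793 to 63266400, plus strand), *Steap4* on chromosome 5 (8010472 to 8032213, plus strand) and *Hp* on chromosome 8 (110301760 to 110305804, minus strand). All 8 are annotated as protein-coding. The coding sequences of *Saa1* and *Saa2* were 95.1% identical over the alignment, with a longest shared run of 73 bases. Identity was 74.5% between *Saa1* and *Saa3* and 89.9% between *Orm1* and *Orm2* of the same family. How fragments that fit more than 1 copy were counted is not given in the sources used here, so the split between *Saa1* and *Saa2* and among the *Orm* genes is uncertain.

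RefSeq promoters (GRCm38.p6) were matched for 6 of the 8 genes, all but *Hp* and *Orm1*. The 250 bases before each start site are shown because the genes moved together and because a C/EBP match is what the windows have in common. They run 5′ to 3′ on the strand of the gene, and capitals mark motif matches on either strand.
Saa3 (chr7:46715677-46715926, minus strand): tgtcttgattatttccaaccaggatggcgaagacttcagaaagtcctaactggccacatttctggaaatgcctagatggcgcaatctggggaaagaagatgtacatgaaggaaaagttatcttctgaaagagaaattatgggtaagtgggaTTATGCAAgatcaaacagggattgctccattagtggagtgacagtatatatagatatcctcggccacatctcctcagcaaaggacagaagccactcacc
Saa1 (chr7:46742981-46743230, minus strand): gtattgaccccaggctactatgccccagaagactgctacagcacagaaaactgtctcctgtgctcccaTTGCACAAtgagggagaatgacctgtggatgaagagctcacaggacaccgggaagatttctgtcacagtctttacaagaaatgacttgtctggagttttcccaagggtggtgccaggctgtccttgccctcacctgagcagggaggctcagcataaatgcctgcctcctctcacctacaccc
Saa2 (chr7:46751583-46751832, plus strand): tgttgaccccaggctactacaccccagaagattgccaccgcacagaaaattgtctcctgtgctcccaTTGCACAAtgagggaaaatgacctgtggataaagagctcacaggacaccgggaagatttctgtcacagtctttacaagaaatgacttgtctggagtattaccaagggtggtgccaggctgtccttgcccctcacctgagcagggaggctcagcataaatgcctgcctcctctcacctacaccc
Lcn2 (chr2:32387740-32387989, minus strand): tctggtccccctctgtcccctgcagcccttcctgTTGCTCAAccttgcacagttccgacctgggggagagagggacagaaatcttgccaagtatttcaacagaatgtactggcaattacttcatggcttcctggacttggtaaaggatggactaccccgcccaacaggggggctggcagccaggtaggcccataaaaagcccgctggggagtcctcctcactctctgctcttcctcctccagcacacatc
Ptx3 (chr3:66219637-66219886, plus strand): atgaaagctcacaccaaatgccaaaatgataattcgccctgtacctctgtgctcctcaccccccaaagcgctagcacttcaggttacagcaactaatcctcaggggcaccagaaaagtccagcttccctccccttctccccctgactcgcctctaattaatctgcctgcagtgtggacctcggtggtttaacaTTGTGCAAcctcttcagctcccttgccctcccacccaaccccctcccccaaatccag
Steap4 (chr5:7960222-7960471, plus strand): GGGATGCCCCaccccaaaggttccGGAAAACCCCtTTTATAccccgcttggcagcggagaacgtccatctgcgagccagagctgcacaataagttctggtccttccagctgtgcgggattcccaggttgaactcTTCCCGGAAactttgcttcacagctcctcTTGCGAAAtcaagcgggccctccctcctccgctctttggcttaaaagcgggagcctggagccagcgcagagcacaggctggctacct

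The motifs searched on both strands were C/EBP (TTGCNNAA), STAT (TTCNNNGAA), AP-1 (TGANTCA), the TATA box (TATAAA) and the NF-κB consensus. A C/EBP match was present in 6 of 6 windows and in 9.56% of the 32851 RefSeq windows of the same length. Counted back from the start site, its first base lay at -182 in *Saa1* and -183 in *Saa2*, whose windows were 94.8% identical and so are not independent. It lay at -216 in *Lcn2* and -87 in *Steap4*, and on the other strand at -99 in *Saa3* and -57 in *Ptx3*. *Steap4* also held 2 matches to the NF-κB consensus, at -250 and -226, a STAT match at -116 and a TATA match at -215. In all windows the share was 3.90% for the NF-κB consensus, 7.02% for STAT, 12.4% for the TATA box and 6.75% for AP-1, which had no match in the 6. No match overlapped another, and a match is a run of letters and not a measured binding site.

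**Figure D1:**
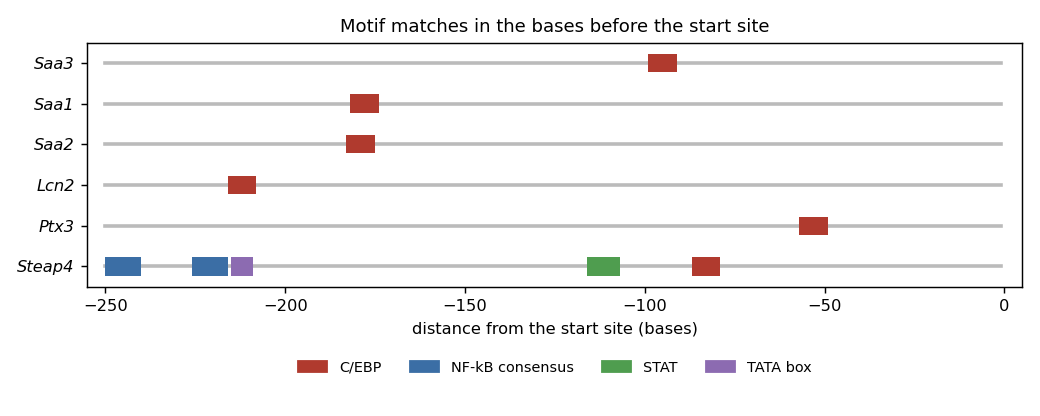
Motif matches in the promoters of 6 genes. The horizontal axis is the distance from the start site in bases, each grey line is a window and each box a match on either strand. A C/EBP match is present in every window, and the other motifs are in *Steap4* alone.

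The libraries held 14119199 to 19276520 fragments on genes. *Ddx5* was at 294 to 337 FPKM in the 6 shRNA-NC libraries and at 90.7 to 118 in the 6 shRNA-*Ddx5* libraries, a log2 difference of -1.63 (SE 0.10, adjusted p = 9.48e-07, limma) in medium and -1.63 (SE 0.10, adjusted p = 9.07e-07, limma) with cytokines. Of the cartilage markers, *Sox9* was at 27.5 ± 0.327 FPKM (SD, n = 3) and *Col2a1* at 12.4 ± 3.05 in shRNA-NC cells in medium, whereas *Acan* had at most 4 fragments in any library. Replicate 2 of shRNA-NC with cytokines stood apart for these genes, as the highest of its group for 7 of the 8 and with no fragment of *Orm1*. It was also the highest at 54.6% of the 2906 genes called higher in shRNA-*Ddx5* than in shRNA-NC cells with cytokines, against 24.6% and 20.6% for replicates 1 and 3. Over all genes tested, Pearson's r of log2(FPKM + 1) was 0.992 between replicates 2 and 3, 0.984 between 1 and 3 and 0.981 between 1 and 2. By that measure replicate 1 was the least alike. What set replicate 2 apart for the 8 genes was not tested. Levels of the 8 genes and the differences of the main listed genes with cytokines are also given without it.

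*Saa3* had the highest level of the 8 genes. It encodes a serum amyloid A, an apolipoprotein of high-density lipoprotein that also attracts leukocytes. In medium no fragment was found in shRNA-NC cells, and the shRNA-*Ddx5* libraries held 1, 1 and 4 fragments (0.115, 0.104 and 0.418 FPKM). With cytokines, replicates 1, 2 and 3 were at 36.3, 278 and 79.1 FPKM in shRNA-NC cells and at 1785, 2182 and 1909 in shRNA-*Ddx5* cells. No group overlapped another, although in medium they differed by a few fragments. Among all genes in the table *Saa3* ranked 14 to 20 by FPKM in the shRNA-*Ddx5* libraries with cytokines and 197 to 2080 in the shRNA-NC ones. Its mean with cytokines was 14.9-fold higher in the knockdown, or 34.0-fold without control replicate 2, and the lowest knockdown library was 6.42-fold above the highest control. In shRNA-NC cells the mean with cytokines, 131 ± 129 FPKM (SD, n = 3), was at least 1299-fold above the level of 3 fragments over the group in medium, and it was 57.7 FPKM without replicate 2.

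**Figure D2:**
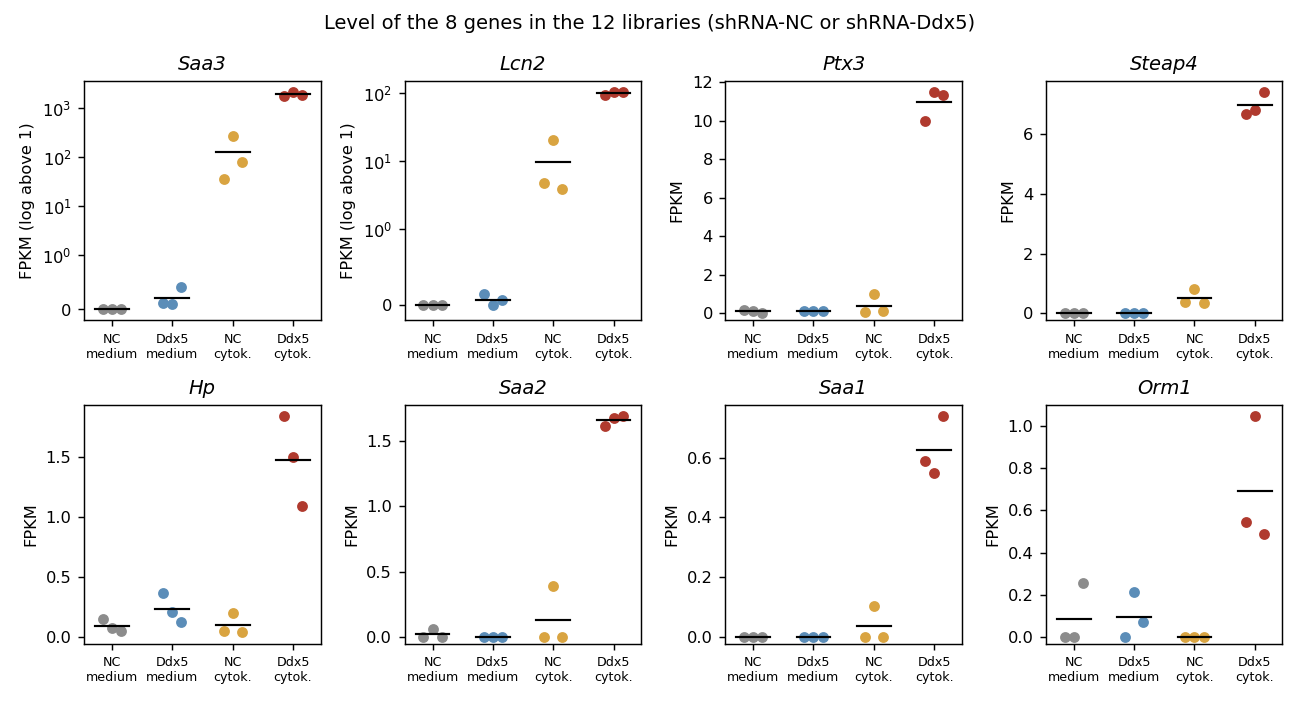
FPKM of the 8 genes in each of the 12 libraries. Points are libraries and black lines are means of 3, with shRNA-NC and shRNA-*Ddx5* shortened to NC and Ddx5. The axis is linear but for *Saa3* and *Lcn2*, where it is logarithmic above 1 FPKM. In each panel the 3 libraries of shRNA-*Ddx5* with cytokines lie above the other 9, a separation that follows from how the genes were chosen.

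The other serum amyloid A genes stayed low. *Saa2* was at 1.61, 1.68 and 1.69 FPKM in shRNA-*Ddx5* cells with cytokines, on 22, 22 and 22 fragments. In shRNA-NC cells with cytokines it was at 0, 0.388 and 0 FPKM, its 6 fragments all in replicate 2, and the 6 libraries in medium held 1 fragment together. *Saa1* had no fragment in medium, 0, 2 and 0 fragments in shRNA-NC and 10, 9 and 12 in shRNA-*Ddx5* cells with cytokines (0.588, 0.550 and 0.741 FPKM). For both, the knockdown libraries with cytokines lay above all others, which follows from how the genes were chosen. The ratio between the cell kinds with cytokines was 12.8 for *Saa2* and 17.4 for *Saa1*, the latter with a 95% counting interval of 4.44 to 150.4. Of the summed FPKM of the 8 genes, *Saa3* made up 93.7% to 94.4% in shRNA-*Ddx5* and 87.2% to 94.8% in shRNA-NC cells with cytokines, ranges that overlapped.

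Within 100 kb of these genes, 4 others passed a filter on low values, 1 FPKM or more in 3 or more libraries. They were looked at after their values were seen. With cytokines *Saal1*, next to *Saa3*, went from 8.54 ± 0.258 FPKM in control to 13.1 ± 0.447 in knockdown cells (SD, n = 3; log2 difference 0.57, SE 0.07, adjusted p = 7.87e-05, limma). *Ldha*, which encodes a lactate dehydrogenase subunit, was at 185 ± 5.80 and 314 ± 19.9 FPKM (log2 difference 0.76, SE 0.10, adjusted p = 9.68e-05, limma). *Hps5* differed by 0.29 (SE 0.10, adjusted p = 0.0278, limma), a call lost in 6 alternatives, and *Gtf2h1* by -0.17 (SE 0.12, adjusted p = 0.251, limma), which was not called. Both *Saal1* and *Ldha* were also higher in the knockdown in medium. *Saa4*, the constitutive family member that lies between *Saa3* and *Saa1*, had no fragment in medium and was at 0.0339 ± 0.0587 and 0.556 ± 0.165 FPKM with cytokines.

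*Lcn2* and *Hp* encode proteins that withhold iron, lipocalin 2 by binding bacterial siderophores and haptoglobin by binding free haemoglobin. *Lcn2* had no fragment in shRNA-NC cells in medium and 2, 0 and 1 fragments in shRNA-*Ddx5* cells in medium. With cytokines it was at 4.84, 20.3 and 3.87 FPKM in shRNA-NC and 95.7, 106 and 106 in shRNA-*Ddx5* cells. Those groups overlapped neither each other nor the groups in medium, which overlapped one another. The mean was 10.6-fold higher in the knockdown with cytokines, or 23.5-fold without control replicate 2. *Hp* was at 1.84, 1.496 and 1.09 FPKM in shRNA-*Ddx5* cells with cytokines and at 0.362 FPKM or less (8 fragments or fewer) in the other 9 libraries. That mean was 15.7-fold that of shRNA-NC cells with cytokines, a ratio that rests on 7 control fragments, 5 of them in replicate 2. In shRNA-NC cells *Hp* was at 0.0890 ± 0.0493 FPKM in medium and 0.0942 ± 0.0903 with cytokines (SD, n = 3), with overlapping ranges.

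*Ptx3* encodes the long pentraxin, which binds complement C1q and microbes, and *Orm1* a plasma glycoprotein that carries small ligands. *Ptx3* was at 0.0623, 1.000 and 0.111 FPKM in shRNA-NC cells with cytokines, with 36 of the 42 fragments in replicate 2. In shRNA-*Ddx5* cells with cytokines it was at 10.01, 11.5 and 11.3 FPKM, and no library in medium exceeded 0.151. Control replicates 1 and 3 with cytokines thus lay within the range of medium. The ratio of the means with cytokines was 27.99, or 126 without control replicate 2. *Orm1* had no fragment in shRNA-NC cells with cytokines and 7, 13 and 6 fragments in shRNA-*Ddx5* cells with cytokines (0.543, 1.05 and 0.489 FPKM), at least 9.77-fold above the level of 3 fragments over the control group. In medium it reached 0.256 FPKM, below that range.

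*Steap4* is a membrane metalloreductase that reduces iron and copper, and the 6 libraries in medium held 1 fragment of it. With cytokines it was at 0.381, 0.816 and 0.339 FPKM in shRNA-NC and 6.68, 6.83 and 7.42 in shRNA-*Ddx5* cells. The groups did not overlap, and both lay above medium. The mean was 13.6-fold higher in the knockdown, or 19.4-fold without control replicate 2. That library was 2.27-fold above the mean of the other controls for *Steap4*, 4.67-fold for *Lcn2*, 4.72-fold for *Hp*, 4.82-fold for *Saa3* and 11.6-fold for *Ptx3*. Those other controls had no fragment of *Saa1*, *Saa2* or *Orm1*.

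**Figure D3:**
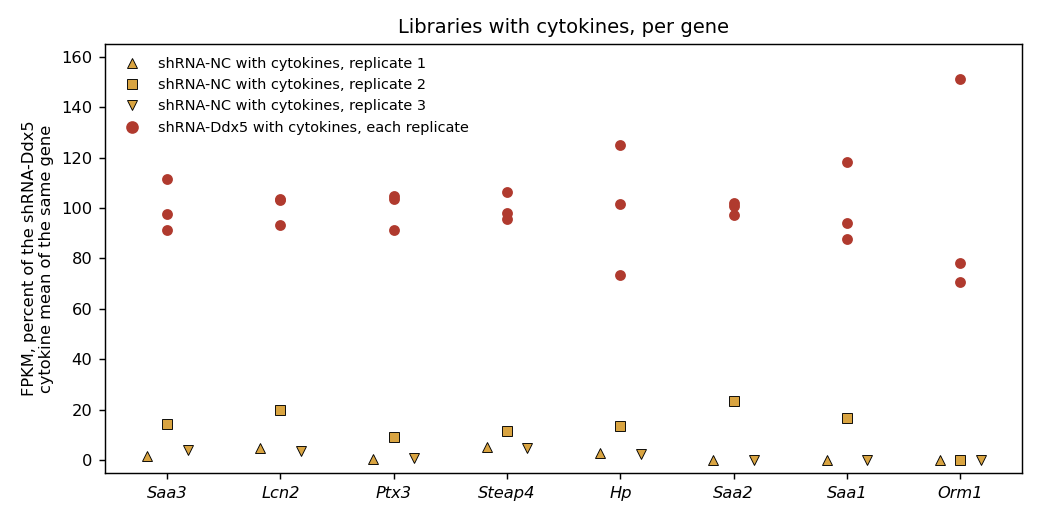
Level of each gene in the 6 libraries with cytokines, as a percentage of the mean FPKM of the 3 shRNA-*Ddx5* libraries. Red circles are shRNA-*Ddx5* and yellow symbols shRNA-NC libraries. Control replicate 2 (squares) lay at 9.14% to 23.4% for 7 genes and at 0 for *Orm1*, and the mean of replicates 1 and 3 at 5.16% or less.

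Differences were fitted by limma on log2(FPKM + 1) over the 12368 genes that passed the filter, and a gene was called when its adjusted p was under 0.05. *Saa1* and *Orm1* did not pass. *Saa2*, *Hp*, *Ptx3* and *Steap4* passed only through the shRNA-*Ddx5* libraries with cytokines and so had to differ. *Saa3* and *Lcn2* passed only through the libraries with cytokines, of both cell kinds, so that their differences between cytokines and medium had to be positive. The counts of these genes past the threshold follow from how they were chosen and filtered, nothing is read from them, and the shares of all genes beside them are for scale. The contrasts share libraries, and the scale understates the change of a gene near 0. With cytokines in shRNA-NC cells *Saa3* was higher by 6.56 (SE 0.52), *Lcn2* by 3.08 (SE 0.41) and *Steap4* by 0.58 (SE 0.11), values past the threshold, where 18.6% of all genes tested were called higher and 15.2% lower. The differences of *Ptx3*, *Saa2* and *Hp* were 0.30, 0.13 and 0.00 and did not pass it. Without replicate 2, *Saa3* was at 5.77, *Lcn2* at 2.42 and *Steap4* at 0.44. In shRNA-*Ddx5* cells the cytokine differences were 10.66 for *Saa3*, 6.60 for *Lcn2*, 3.44 for *Ptx3*, 2.99 for *Steap4*, 1.41 for *Saa2* and 1.00 for *Hp*. All 6 lay past the threshold, a count that follows from how they were chosen, beside 13.5% of all genes called higher and 13.5% lower.

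In medium the knockdown differences lay between -0.03 (*Saa2*) and 0.27 (*Saa3*, SE 0.52). Limma called 0 of the 6, beside 25.3% of all genes called higher and 21.7% lower. At an unadjusted p under 0.05 the number was 0, and voom weights on the fragments gave 0. No library in medium reached 1 FPKM for any of the 6. A call there was thus unlikely in advance, and nothing is read from its absence. The value for *Saa3* was 1.501 with a pseudocount of 0.1 and 2.20 with voom weights, not called in either, and no library in medium held more than 8 fragments of any of the 8 genes. With cytokines the knockdown difference was 4.37 (SE 0.52) for *Saa3*, 3.61 (SE 0.41) for *Lcn2*, 3.16 (SE 0.20) for *Ptx3*, 2.41 (SE 0.11) for *Steap4*, 1.25 (SE 0.12) for *Saa2* and 1.17 (SE 0.13) for *Hp*. All 6 lay past the threshold, a count that follows from how they were chosen, beside 23.5% of all genes called higher and 22.1% lower, and the median over all genes was 0.01. Without control replicate 2 the values were 5.16, 4.28, 3.46, 2.55, 1.41 and 1.24 in the same order. Counted from the most positive difference, *Saa3* ranked 3, *Lcn2* 5, *Ptx3* 11, *Steap4* 37, *Saa2* 270 and *Hp* 327 of all genes tested.

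**Figure D4:**
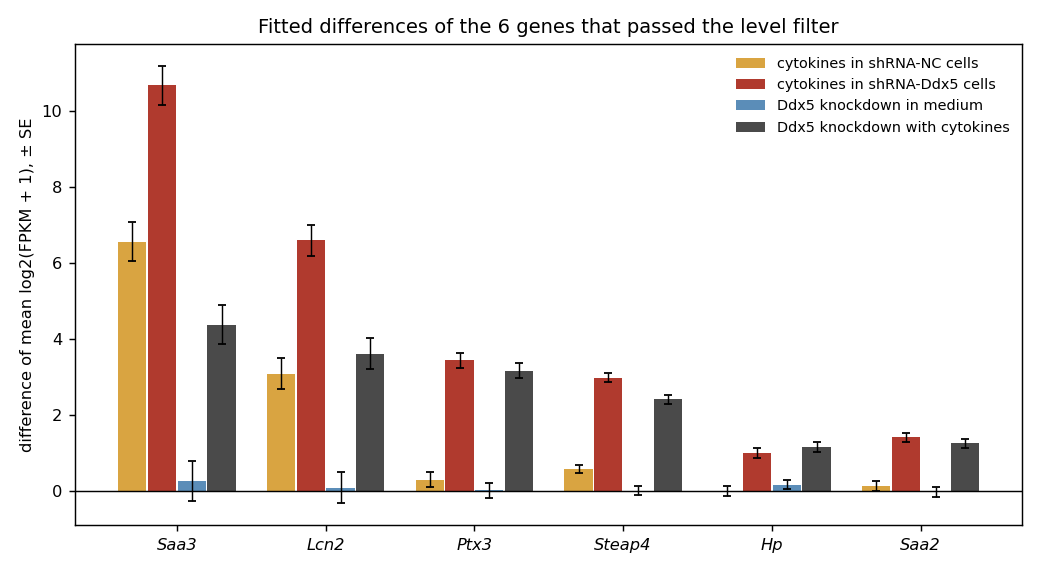
Fitted differences of the 6 genes that passed the filter, as bars from 0 on the log2(FPKM + 1) scale with SE, for 4 contrasts in 4 colours. The blue bars of the knockdown in medium lie at 0.27 or less, and the dark bars of the knockdown with cytokines run from 1.17 (*Hp*) to 4.37 (*Saa3*).

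The interaction, the knockdown difference with cytokines minus that in medium, was 4.11 for *Saa3*, 3.52 for *Lcn2*, 3.14 for *Ptx3*, 2.40 for *Steap4*, 1.28 for *Saa2* and 1.00 for *Hp*. Without control replicate 2 the values were 4.89, 4.18, 3.43, 2.54, 1.44 and 1.06 in the same order. All 6 lay past the threshold, a count that follows from how they were chosen, beside 3.46% of all genes called higher and 4.75% lower. With levels at or near 0 in medium, this value nearly repeats the knockdown difference with cytokines, and its side of the threshold depended on how low values were treated. With voom weights 2 of the 6 were called, *Ptx3* and *Saa2*. With a pseudocount of 0.1 *Saa3* (2.89) and *Hp* (2.31) were not called.

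Of 30 other acute-phase proteins, 9 passed the filter. Of these, *Serpina3g*, *C3*, *Lbp* and *Il1rn* passed only through the shRNA-*Ddx5* libraries with cytokines and so had to differ, and their values are a description with no p-value. Of the other 5, with cytokines 2 were called higher (*Cp* and *Cd14*) and 0 lower in the knockdown, beside 23.5% and 22.1% of all genes. In medium 1 was higher and 1 lower, beside 25.3% and 21.7%. The cytokines raised 4 of the 5 in shRNA-NC and 5 in shRNA-*Ddx5* cells, beside 18.6% and 13.5% of all genes. *Mt2* is in both counts and passed the filter only through the libraries with cytokines, so that its rise was required. *Serpina3g*, a protease inhibitor, had 1.84 ± 2.23 FPKM in control and 13.5 ± 0.710 in knockdown cells with cytokines (SD, n = 3; log2 difference 2.63, SE 0.38). Complement *C3* was at 0.788 ± 0.978 and 7.92 ± 0.199 FPKM (log2 difference 2.45, SE 0.26). The copper carrier ceruloplasmin, *Cp*, was at 6.15 ± 2.66 and 19.4 ± 1.65 FPKM (log2 difference 1.57, SE 0.21, adjusted p = 0.000124, limma). *Lbp*, whose product presents lipopolysaccharide to its receptor, was at 0.0916 ± 0.141 and 1.72 ± 0.129 FPKM (log2 difference 1.32, SE 0.10). *Il1rn*, the IL-1 receptor antagonist, was at 0.0720 ± 0.00690 and 1.24 ± 0.0260 FPKM (log2 difference 1.06, SE 0.08). *Cp* was also higher in the knockdown in medium, by 0.90 (SE 0.21, adjusted p = 0.00443, limma), and *Cd14*, a co-receptor for lipopolysaccharide, differed by 0.37 (SE 0.12, adjusted p = 0.0261, limma) with cytokines. Without control replicate 2 the difference with cytokines was 3.23 for *Serpina3g*, 2.87 for *C3*, 1.43 for *Lbp*, 1.07 for *Il1rn* and 1.86 for *Cp*.

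The metallothionein genes were not called for the knockdown with cytokines. *Mt2* was at 4.94 ± 0.684 FPKM in shRNA-NC and 4.79 ± 0.744 in shRNA-*Ddx5* cells with cytokines, after a difference with cytokines of 2.10 (SE 0.19) and 2.48 (SE 0.19). It passed the filter only through the libraries with cytokines. *Mt1* was at 56.6 ± 9.86 and 57.7 ± 3.80 FPKM with cytokines. *Crp*, *Apcs* and the fibrinogen genes *Fga*, *Fgb* and *Fgg*, whose proteins the liver makes, did not pass the filter. Of 6 negative acute-phase proteins, which fall in the liver response, 1 passed. It was *Rbp4*, the carrier of retinol, which passed only through the shRNA-*Ddx5* libraries and so had to differ. It went with the knockdown in medium from 0.404 ± 0.0834 to 3.14 ± 0.459 FPKM and with cytokines from 0.580 ± 0.137 to 4.26 ± 0.346, a log2 difference of 1.74 (SE 0.11).

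Of 16 cytokines and receptors that induce the response, 9 passed, of which *Il1rap* would not have passed without the shRNA-*Ddx5* libraries. With cytokines 7 were called higher and 1 lower in the knockdown, with a median of 0.66. Of all genes tested, 23.5% were called higher and 22.1% lower in that contrast. *Il6* was at 0 and 0.591 ± 0.290 FPKM in medium and at 25.2 ± 6.32 and 87.8 ± 8.72 with cytokines in shRNA-NC and shRNA-*Ddx5* cells (log2 difference 1.79, SE 0.18, adjusted p = 1.75e-05, limma). Its interaction was 1.13 (SE 0.25, adjusted p = 0.0192, limma) but -0.86 with a pseudocount of 0.1 and -2.75 with voom weights, so its direction depended on the scale. *Il6st*, the shared receptor chain gp130, was at 63.9 ± 3.87 and 126 ± 3.25 FPKM with cytokines (log2 difference 0.97, SE 0.08, adjusted p = 5.43e-06, limma) and was also higher with the knockdown in medium, by 0.55 (SE 0.08, adjusted p = 0.000275, limma). *Il6ra*, the ligand-binding chain, fell by 0.72 (SE 0.08, adjusted p = 3.3e-05, limma) with the knockdown in medium and rose by 0.66 (SE 0.08, adjusted p = 5.28e-05, limma) with cytokines. *Lif*, a cytokine of the same family, was lower in the knockdown with cytokines, at 7.16 ± 1.59 and 3.14 ± 0.323 FPKM (log2 difference -0.96, SE 0.13, adjusted p = 0.000146, limma).

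Of 22 transcription factors and feedback genes of the response, 20 passed. The cytokines raised 17 and lowered 1 in shRNA-NC cells, beside 18.6% of all genes called higher and 15.2% lower. They raised 17 and lowered 1 in shRNA-*Ddx5* cells, beside 13.5% and 13.5%. With cytokines the knockdown raised 10 and lowered 2, with a median of 0.30, beside 23.5% of all genes called higher and 22.1% lower. *Cebpd*, the gene of C/EBPδ, was at 0.753 ± 0.194 and 3.75 ± 0.528 FPKM in medium and 19.3 ± 9.79 and 104 ± 6.12 with cytokines in shRNA-NC and shRNA-*Ddx5* cells (SD, n = 3). It was higher in the knockdown by 1.44 (SE 0.28, adjusted p = 0.00152, limma) in medium and by 2.49 (SE 0.28, adjusted p = 3.64e-05, limma) with cytokines. *Cebpb*, the gene of C/EBPβ, was at 38.7 ± 8.91 and 30.7 ± 5.00 FPKM in medium and 103 ± 24.9 and 269.7 ± 19.3 with cytokines, where it differed by 1.40 (SE 0.20, adjusted p = 0.000184, limma). *Cebpa*, by contrast, was at 2.73 ± 0.684 and 0.740 ± 0.193 FPKM with cytokines, a log2 difference of -1.09 (SE 0.23). It is 1 of the 2 lowered, and it passed the filter only through shRNA-NC libraries and so had to differ. Without control replicate 2 the knockdown difference with cytokines was 2.84 for *Cebpd*, 1.58 for *Cebpb*, -1.23 for *Cebpa*, 1.69 for *Stat3*, 1.66 for *Socs3* and 1.35 for *Irf1*.

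*Stat3*, the factor downstream of IL-6, was at 19.9 ± 2.25 FPKM in medium and 20.46 ± 5.29 with cytokines in shRNA-NC cells, which was not called, and at 58.7 ± 1.89 in shRNA-*Ddx5* cells with cytokines (knockdown with cytokines, log2 difference 1.503, SE 0.15, adjusted p = 1.4e-05, limma). *Socs3*, the feedback inhibitor of that pathway, was at 13.7 ± 2.95 and 40.3 ± 1.87 FPKM with cytokines (log2 difference 1.504, SE 0.20, adjusted p = 0.000134, limma). Both *Stat3* and *Socs3* were also higher with the knockdown in medium, by 0.66 (SE 0.15, adjusted p = 0.0032, limma) and 0.96 (SE 0.20, adjusted p = 0.00252, limma). *Irf1*, an interferon-regulatory factor, was at 26.9 ± 4.72 and 64.0 ± 2.50 FPKM (log2 difference 1.23, SE 0.13, adjusted p = 2.07e-05, limma). The list held 12 NF-κB subunits and NF-κB inhibitors or feedback genes that passed. Of these the cytokines raised 11 in shRNA-NC cells, all but *Rel*, beside 18.6% of all genes. With cytokines the knockdown raised 5 of the 12 and lowered 0, beside 23.5% of all genes called higher and 22.1% lower. *Tnip1*, which encodes a partner of A20, was at 19.8 ± 3.86 and 44.9 ± 1.15 FPKM (log2 difference 1.16, SE 0.15, adjusted p = 8.87e-05, limma). *Zc3h12a*, which encodes the ribonuclease regnase-1, was at 14.5 ± 4.47 and 31.2 ± 1.25 FPKM (log2 difference 1.10, SE 0.23, adjusted p = 0.00238, limma). *Nfkb1* differed by 0.51 (SE 0.10, adjusted p = 0.00173, limma), *Relb* by 0.34 (SE 0.12, adjusted p = 0.0343, limma) and *Nfkbie*, the gene of IκBε, by 0.34 (SE 0.10, adjusted p = 0.0145, limma). The other 7 did not pass, with values of 0.17 for *Nfkb2*, 0.13 for *Nfkbib*, 0.01 for *Rel* and -0.25 for *Rela*. *Nfkbia*, the inhibitor IκBα, was at 215 ± 3.92 and 204 ± 7.30 FPKM (log2 difference -0.08, SE 0.08, adjusted p = 0.479, limma). *Tnfaip3*, the inhibitor A20, was at 74.6 ± 10.3 and 89.0 ± 2.67 FPKM (log2 difference 0.26, SE 0.10, adjusted p = 0.0594, limma). *Nfkbiz*, which encodes IκBζ, was at 35.2 ± 6.02 and 37.4 ± 2.58 FPKM (log2 difference 0.10, SE 0.13, adjusted p = 0.588, limma). In medium, by contrast, the knockdown lowered *Nfkbie* (-0.77), *Relb* (-0.60) and *Tnip1* (-0.49) and raised *Nfkbiz* (0.85) and *Nfkbia* (0.25), all called by limma.

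**Figure D5:**
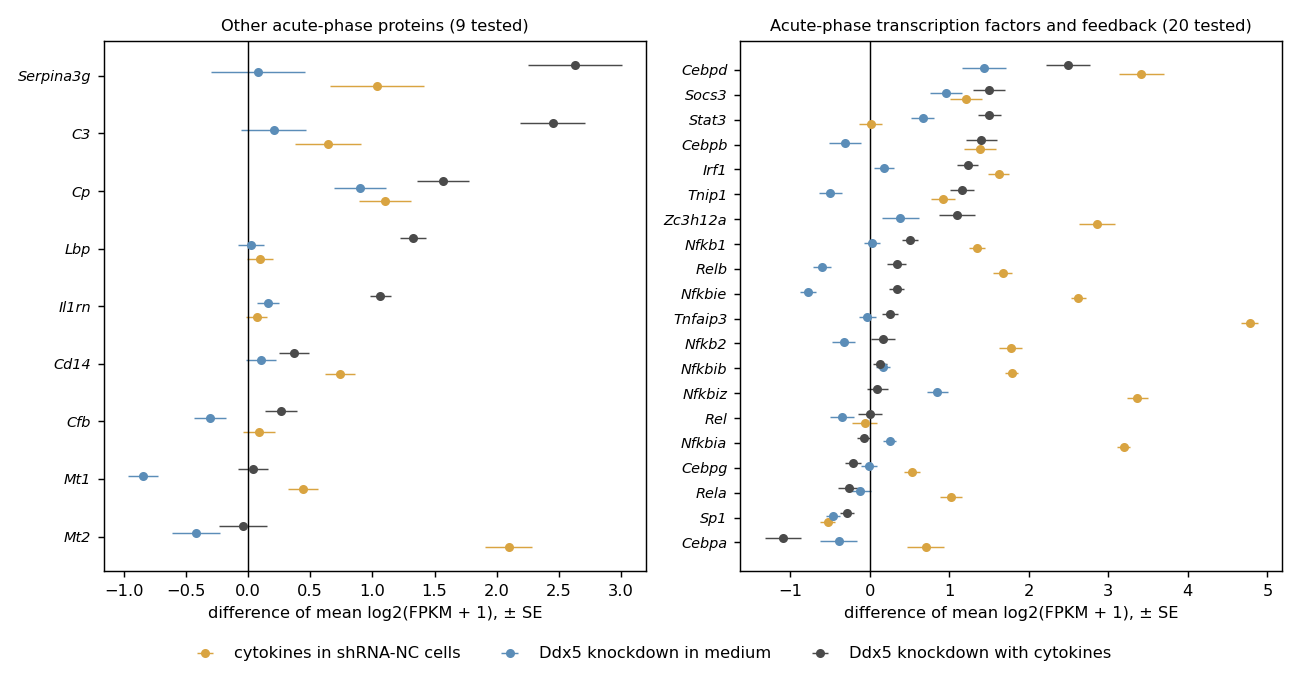
Fitted differences on the log2(FPKM + 1) scale with SE for the 9 other acute-phase proteins (left) and the 20 transcription factors and feedback genes (right) that passed the filter. Dark points are the knockdown with cytokines, blue points the knockdown in medium and yellow points the cytokines in shRNA-NC cells. *Serpina3g* and *C3* lie at 2.63 and 2.45 for the knockdown with cytokines and at 0.08 and 0.21 in medium, a gap that their passage of the filter required, as it did for *Lbp* and *Il1rn*. For the knockdown with cytokines *Tnip1*, *Zc3h12a* and *Nfkbie* lie at 1.16, 1.10 and 0.34 and *Nfkbia* and *Tnfaip3* at -0.08 and 0.26.

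Of 19 partners and receptors of the 8 proteins, 8 passed. With cytokines the knockdown raised 5 and lowered 2, with a median of 0.36, beside 23.5% of all genes called higher and 22.1% lower. *Tnfaip6*, whose product works with pentraxin 3 in hyaluronan matrix, was at 2.69 ± 0.481 and 23.1 ± 1.12 FPKM (log2 difference 2.72, SE 0.16, adjusted p = 6.29e-07, limma) and differed in medium as well, by 1.49 (SE 0.16, adjusted p = 2.88e-05, limma). *Tlr2*, a receptor described for serum amyloid A, was at 57.7 ± 4.96 and 118 ± 1.75 FPKM (log2 difference 1.02, SE 0.14, adjusted p = 0.00013, limma). *Selp*, which encodes P-selectin, fell by 0.69 (SE 0.09, adjusted p = 7.78e-05, limma), and in medium by 0.85 (SE 0.09, adjusted p = 2.03e-05, limma). The haptoglobin-haemoglobin receptor *Cd163* and the lipocalin 2 receptors *Lrp2* and *Slc22a17* did not pass the filter.

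In the STEAP family and iron or copper transport, 11 of 12 genes passed. With cytokines the knockdown raised 5 and lowered 1, with a median of 0.17, beside 23.5% of all genes called higher and 22.1% lower. *Steap1* was at 31.4 ± 3.13 and 45.4 ± 4.50 FPKM (log2 difference 0.52, SE 0.11, adjusted p = 0.00357, limma), and *Steap2* and *Steap3* were not called. *Slc39a14*, a zinc and iron importer, was at 7.09 ± 1.56 and 27.5 ± 0.610 FPKM (log2 difference 1.83, SE 0.11, adjusted p = 8.27e-07, limma), and it was the 1 gene of the list with a called interaction, 0.77 (SE 0.16, adjusted p = 0.0133, limma). *Fth1*, the ferritin heavy chain, was at 1003 ± 115 and 2224 ± 166 FPKM (log2 difference 1.15, SE 0.12, adjusted p = 1.83e-05, limma). *Bdh2*, which encodes a dehydrogenase, fell by 0.95 (SE 0.10, adjusted p = 2.54e-05, limma). In medium the knockdown differences were 0.78 for *Steap1*, 1.06 for *Slc39a14*, 0.86 for *Fth1* and -0.90 for *Bdh2*, each called by limma as well.

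In bulk libraries fewer cells of a type and less RNA per cell cannot be told apart, and markers of other cells that make these transcripts were therefore read beside them. Of 7 hepatocyte markers 0 passed the filter, their summed level was at most 0.361 FPKM in any library, and *Alb*, *Ttr* and *Hnf4a* were at 3 fragments or fewer over the 12 libraries. Of 8 markers of macrophages and monocytes 1 passed, *Cd68*, which was not called. Their sum was 1.29 to 2.09 FPKM in shRNA-NC and 1.94 to 2.84 in shRNA-*Ddx5* libraries in medium and 1.70 to 2.33 and 2.43 to 2.57 with cytokines, and *Ptprc*, *Itgam*, *Adgre1* and *Tyrobp* were at 3 fragments or fewer over the 12 libraries. Of 7 neutrophil markers 1 passed, *Camp*, the gene of cathelicidin, at 0.0297 ± 0.0514 and 2.08 ± 0.221 FPKM with cytokines (log2 difference 1.58, SE 0.15), which passed only through the shRNA-*Ddx5* libraries with cytokines and so had to differ, while the other 6 were at 3 fragments or fewer over the 12 libraries. Their sum reached 0.508 FPKM in medium, and with cytokines it was 0 to 0.0891 FPKM in shRNA-NC and 1.92 to 2.36 in shRNA-*Ddx5* libraries. Of 6 adipocyte markers 1 passed, *Fabp4*, at 0.366 ± 0.344 and 1.65 ± 0.383 FPKM with cytokines, which passed only through shRNA-*Ddx5* libraries, and *Adipoq* and *Plin1* were at 3 fragments or fewer over the 12 libraries. The sum of the 6 was 0.0179 to 0.0504 FPKM in shRNA-NC and 1.25 to 1.61 in shRNA-*Ddx5* libraries in medium and 0.0883 to 0.819 and 1.45 to 2.18 with cytokines. Of 6 epithelial and endothelial markers 0 passed, with a sum of at most 0.141 FPKM. The part of *Camp* or *Fabp4* in the levels above was not tested.

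Of 10 cartilage markers 4 passed. With cytokines 4 of them were called lower in shRNA-NC and 3 in shRNA-*Ddx5* cells, and 0 higher by limma. Of all genes tested, 15.2% and 13.5% were called lower in these contrasts. *Sox5* passed the filter only through the libraries in medium, so that its fall with cytokines was required. The sum of the 10 was 40.1 to 45.2 and 31.6 to 34.2 FPKM in medium and 13.1 to 18.3 and 10.6 to 10.7 with cytokines, in shRNA-NC and shRNA-*Ddx5* libraries. With cytokines the knockdown raised 1 of the 4 and lowered 2, beside 23.5% of all genes called higher and 22.1% lower. *Sox9*, the gene of the main cartilage transcription factor, fell by 0.61 (SE 0.08, adjusted p = 0.000174, limma), and *Sox5* differed by 0.08 (SE 0.09, adjusted p = 0.479, limma), which was not called. *Col2a1*, the collagen of cartilage matrix, was at 6.33 ± 2.61 and 0.779 ± 0.0410 FPKM, a log2 difference of -1.98 (SE 0.23), and passed the filter only through shRNA-NC libraries. *Col11a1*, its partner, was at 0.284 ± 0.120 and 3.04 ± 0.434 FPKM, a log2 difference of 1.65 (SE 0.12), and passed only through shRNA-*Ddx5* libraries, so that both had to differ between the cell kinds. Whether this has a part in the levels of the acute-phase genes was not tested.

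The genes whose log2(FPKM + 1) over the 12 libraries was most like that of each gene were ranked by Pearson's r, a description that mostly follows the 4 group means. For *Saa3* they were *Prss23* (0.995), the interferon-induced *Ifit1* (0.995) and *Nos2* (0.995), the inducible nitric oxide synthase. *Nos2* was at 63.2 ± 30.02 FPKM in shRNA-NC and 396 ± 11.1 in shRNA-*Ddx5* cells with cytokines (SD, n = 3). Nearest to *Lcn2* were *Susd6*, *Isg15* and *Ccl9* (0.994, 0.992 and 0.991). The chemokine gene *Ccl3* was among the first 3 for *Ptx3* (0.999), *Saa2* (0.996) and *Steap4* (0.995), with no fragment in medium and 0.318 ± 0.369 and 10.3 ± 1.16 FPKM with cytokines. *Lbp* was among the first 3 for *Ptx3* (0.998) and *Saa2* (0.995). The other places were held by *Serpina3i* for *Ptx3*, *P2rx1* for *Saa2*, *Pde4b* and *Trim30a* for *Steap4*, and *Oas3*, *Abcc3* and *Dhrs9* for *Hp* (0.967 to 0.969). Among the 6 genes themselves r ran from 0.754 (*Hp* and *Saa3*) to 0.998 (*Ptx3* and *Saa2*).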

How the data were processed

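RNA of 12 ATDC5 cultures was sequenced by the authors as paired reads of 150 bases, with 1 µg of RNA per sample as input and with poly-A selection. The authors counted fragments on genes and deposited FPKM for each gene and library. Their processing notes name HISAT2 2.0.5, featureCounts 1.5.0-p3 and build mm10, whereas the coordinates in the table are those of GRCm39. Strandedness is not given in the sources used here. FPKM times gene length came in whole steps of 1 fragment in each library (tolerance 0.05), from which fragments were recovered, 14119199 to 19276520 per library. Contrasts were fitted with limma 3.58.1 (R 4.3.3) on log2(FPKM + 1), eBayes with trend, over the 12368 genes at 1 FPKM or more in at least 3 libraries. All 12 libraries entered 1 fit of 4 group means, with Benjamini-Hochberg adjustment over all genes tested and a threshold of 0.05. The fit was also run on simulated data with the same dispersion for every gene and no outlying library. That run checks the code and does not show how the fit behaves at the spread seen here. The study calls the replicates biologically independent.

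The 8 genes, the lists and the tests were chosen with earlier results of these data known. Named were the 8, *Ddx5*, up to 5 called genes per list, contrast and direction with the largest difference, and the 3 most like genes; neighbours, markers and genes given as not called were named after their values were seen. Folds are ratios of mean FPKM. A group at 0 was set to 3 fragments over its libraries, and for 1 to 3 fragments an exact 95% interval of the ratio of counts is given; both cover counting error only. Coding sequences of canonical GENCODE transcripts, an addition made after seeing the data, were aligned with Biopython 1.88 (Python 3.11.15). The alternatives tried were another pseudocount, other filters on low values, quantile normalization, scaling of fragments to their sum, voom weights, a replicate block, a fit on the libraries of each contrast, eBayes without trend, and leaving out each library. Same-numbered libraries of different groups did not deviate together (18 pairs, r from -0.39 to 0.45, 4 over 0.1), so the numbers were not taken to pair them.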

Additional observations from a re-analysis of the deposited data

Results flagged for a closer look

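The knockdown difference with cytokines was set against that in medium, and the 26 results below passed the threshold for this interaction (log2(FPKM + 1) scale, limma with Benjamini-Hochberg adjustment). Of the 8 acute-phase genes they were *Saa3* (4.11), *Lcn2* (3.52), *Ptx3* (3.14), *Steap4* (2.40), *Saa2* (1.28) and *Hp* (1.00), chosen with this pattern known, of which *Ptx3*, *Steap4*, *Saa2* and *Hp* passed the filter on low values only through the shRNA-*Ddx5* libraries with cytokines and so had to differ. Of the other acute-phase proteins they were *Serpina3g* (2.55), *C3* (2.24), *Lbp* (1.30), *Il1rn* (0.90) and *Mt1* (0.88), where all but *Mt1* passed in that same way and had to differ, as did *Camp* below. Of the transcription factors and feedback genes, *Cebpb* (1.72), *Tnip1* (1.66), *Nfkbie* (1.11), *Irf1* (1.05) and *Relb* (0.94) had a more positive difference with cytokines and *Nfkbiz* (-0.76) a more negative one. The cytokines and receptors were *Il6ra* (1.38), *Il6* (1.13), *Il6st* (0.43) and *Lif* (-0.99), the partners and receptors *Tnfaip6* (1.23), *Tlr2* (1.01) and *Tlr4* (0.78), and the remaining genes *Slc39a14* (0.77) and *Camp* (1.38). *Il6ra*, *Nfkbie*, *Relb* and *Tnip1* were called lower in the knockdown in medium and higher with cytokines. The call was lost in 15 alternatives for *Il6st*, 11 for *Tlr4* and 10 for *Nfkbiz*. Of all genes tested, 3.46% were called higher and 4.75% lower for the interaction. Not called were 4 of the 9 other acute-phase proteins tested, 5 of 9 cytokines and receptors and 13 of 20 transcription factors and feedback genes. The same held for 5 of 8 partners and receptors and 10 of 11 STEAP and transport genes.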

How the results depend on the processing

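Of 594 values of the 6 genes fitted, 588 kept their side of the threshold and 6 lost a call. The number that turned, a change of sign with a call in either fit, was 0, in directions that the choice of the genes fixed. Values that were not called did change sign. With cytokines in shRNA-NC cells *Hp* ran from -0.06 to 0.04 and *Saa2* from -0.03 to 0.21 when a library was left out. The 6 lost calls were interactions, and voom weights called 2 of the 6 genes there in place of 6. Of 3458 values of the other genes, 131 lost a call, 9 gained one and 2 turned, the interaction of *Il6* at -0.86 (pseudocount 0.1) and -2.75 (voom weights). The interactions of *Serpina3g*, *C3*, *Il1rn*, *Lif* and *Camp* each lost their call in 2 alternatives. The cause was not tested. A filter of 1 FPKM in all libraries left none of the 8 genes and gave no value for them. With the replicate block 3, 6, 0, 6 and 6 of the 6 genes were called higher (cytokines in shRNA-NC cells, cytokines in shRNA-*Ddx5* cells, knockdown in medium, knockdown with cytokines, interaction), the numbers found without it. They follow from how the genes were chosen and filtered. Beside them 2087, 1488, 2927, 2692 and 293 of all 12368 genes were called higher, in the same order. Over all genes the interaction calls that were higher went from 428 to 293 with the block. Those calls numbered 238 to 520 when a library was left out, falling by more than 1.5 times without shRNA-NC medium replicate 2 (259), shRNA-*Ddx5* medium replicate 3 (253) or shRNA-*Ddx5* cytokines replicates 1, 2 and 3 (255, 260 and 238), and 255 with the stricter filter. The share of calls that were higher moved from 55.1% to 43.4% (quantile normalization) and 42.2% (fragments scaled to their sum) for cytokines in shRNA-NC cells, from 50.0% to 39.0% (quantile) for cytokines in shRNA-*Ddx5* cells, from 53.8% to 42.5% (sum) for the knockdown in medium, and from 51.5% to 47.2% (quantile) and 44.3% (sum) for the knockdown with cytokines. Few fragments stand behind the values of *Saa1*, *Saa2*, *Hp* and *Orm1*, and of all 8 genes in medium.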
